A study of Mus musculus with 4 samples.

Results

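The collagen and laminin genes of the mouse testis were followed across cell classes and between genotypes in single-nucleus RNA sequencing libraries. They were chosen by symbol: every gene symbol made of Col, digits, the letter a and digits, or of Lama, Lamb or Lamc and a digit. Of the 55357 genes counted, 55 were such genes, 44 for collagen chains and 11 for laminin chains. Testes of male mice 8 weeks old were sequenced in 2 WT and 2 Dhx37-/- libraries, which the labels call biological replicates. In the Dhx37-/- mice a floxed Dhx37, made on a C57BL/6 background, was deleted by an Amh-Cre transgene, whose promoter is that of anti-Müllerian hormone and directs the deletion to Sertoli cells, so that other cells of the testis were not the target. Dhx37 encodes an RNA helicase of ribosome assembly. Whether the WT mice carried the Cre or the floxed allele, and how many mice went into a library, is not given in the sources used here. The comparisons ask which testis cells make which chains, and whether that differs between the genotypes.

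Collagens are secreted matrix proteins whose chains wind around one another into a rope-like helix. Fibrillar collagens such as I, III and V build the fibrils of connective tissue, collagen VI forms beaded filaments around cells, and collagen IV polymerises into the sheet-like network of basement membranes. Laminins are cross-shaped assemblies of an alpha, a beta and a gamma chain that form the other network of a basement membrane and bind integrins and dystroglycan on the cell surface. In the testis a basement membrane surrounds each seminiferous tubule. Sertoli cells and spermatogonia rest on its inner side and flat contractile peritubular myoid cells lie on its outer side, and both are known to contribute to it. Leydig cells, vessels, fibroblasts and macrophages lie in the tissue between the tubules.

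Between 8294 and 10032 nuclei per library were kept, with medians of 3301 to 4157 UMIs (molecules counted once each by their molecular identifier). Nuclei were sorted into 6 non-germ and 4 germ classes by lists of 12 marker genes each that hold no collagen or laminin, and the UMIs of each class were summed within each library. Levels are given as CPM, the UMIs of a gene per 1000000 UMIs of that class in that library, always in the order WT replicate 1, WT replicate 2, Dhx37-/- replicate 1 and Dhx37-/- replicate 2. The fewest nuclei in a library were 31 for spermatogonia, 33 for endothelial, 34 for myoid, 74 for fibroblast, 90 for Leydig and 109 for Sertoli nuclei. In every library each non-germ class had all of its own 12 markers above 0, but endothelial markers reached only 1729 CPM in Dhx37-/- replicate 2 against 3960 to 4740 CPM in the other libraries. Nuclei of every non-germ class also held germ cell transcripts, and the empty droplets held more. The summed elongating spermatid markers were at 4532, 11158, 10929.6 and 5379 CPM in Sertoli-gated nuclei and at 4936, 6019, 11792 and 11073 CPM in endothelial-gated nuclei, between 2982 and 11012 CPM in the other non-germ classes, and at 16132, 33659, 57242 and 40876 CPM in empty droplets. Class comparisons and the genotype results of Sertoli nuclei are therefore also given for the nuclei with few germ markers. These were 61, 14, 84 and 183 Sertoli nuclei and 52, 12, 30 and 6 endothelial nuclei. Free RNA was measured in droplets without a nucleus. A count of 0 UMIs allows up to 3 UMIs, which is at most 8.57 CPM in a Sertoli, 11.9 CPM in a fibroblast, 23.3 CPM in a myoid and 27.7 CPM in an endothelial sum, and 0.452 CPM in round spermatids. Such limits and all UMI sums carry counting error beside the spread between libraries. Barcodes shared by a pair of libraries numbered 19 to 29. UMIs of Dhx37 in Sertoli-gated nuclei were 7, 7, 6 and 16. The loxP sites lie on both sides of exon 2, and 3′-end UMIs can come from a transcript that lacks this exon, so these counts do not check the deletion.

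The collagen and laminin genes were spread over all classes but the spermatocytes by the class in which they were highest. By mean CPM, 14 genes were highest in myoid nuclei, 12 in fibroblasts, 9 in elongating spermatids, 7 in round spermatids, 6 in endothelial nuclei, 2 each in Sertoli nuclei, macrophages and spermatogonia, and 1 in Leydig nuclei. In the order given, the class was also the highest in each of the 4 libraries for 10, 9, 8, 4, 0, 1, 0, 0 and 0 of these genes. For 17 of the 55, a count not made over all genes, the lowest of the 4 libraries in the highest class stood above every library of the class second by mean. These were Col4a1, Col4a3, Col4a4, Col4a5, Col6a4 and Col8a1 in myoid nuclei, Lamb2 and Lamc1 in fibroblasts, Lama1 in Sertoli nuclei, Col19a1, Col22a1 and Col28a1 in round spermatids, and Col9a3, Col15a1, Col20a1, Col26a1 and Col27a1 in elongating spermatids. In every library fibroblasts exceeded the free RNA of that library for 30 genes, myoid nuclei for 25, elongating spermatids for 22, round spermatids for 17, Leydig nuclei for 14, endothelial nuclei and spermatogonia for 10 each, Sertoli nuclei for 9, macrophages for 4 and spermatocytes for 3. Levels of different genes are not compared, since the number of UMIs per transcript depends on the gene.

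**Figure D1:**
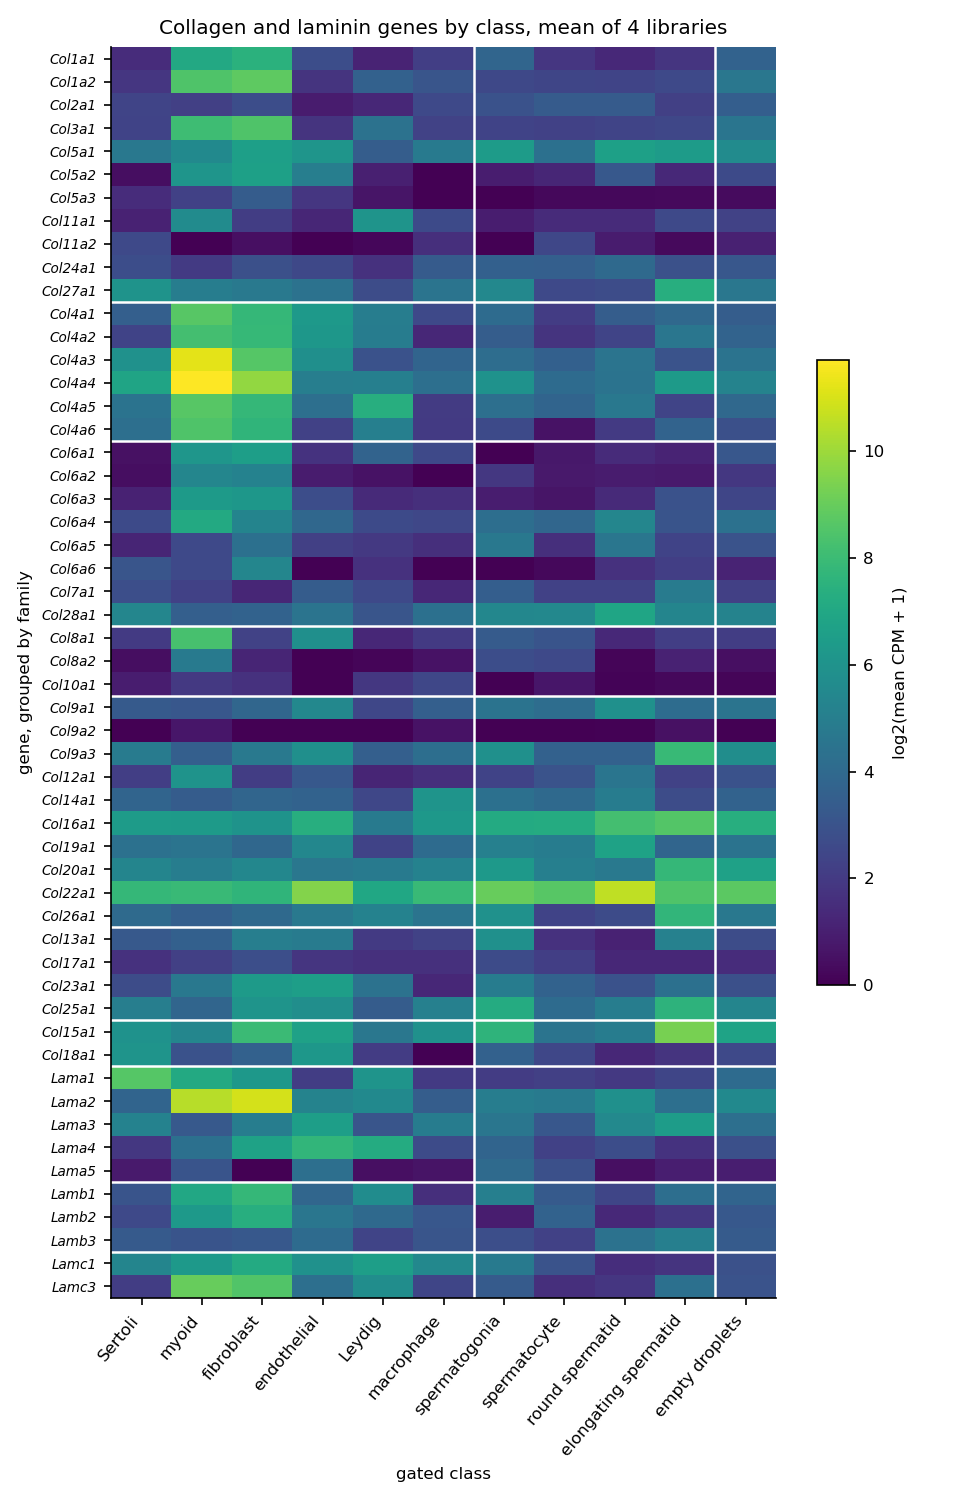
Mean level of collagen and laminin genes (rows, grouped by family) in the 10 gated classes and in empty droplets (columns), as log2 of the mean CPM of 4 libraries plus 1. Along their rows, Col4a3 and Col4a4 are brightest in myoid nuclei, Lama2 in fibroblasts and Col22a1 in round spermatids.

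Of the 55 genes, 44 had enough UMIs to be tested between classes. The test compared a class with the mean of the other 5 non-germ classes, with the library as a block, and a gene was called at an adjusted p under 0.05 (edgeR quasi-likelihood test over 15152 genes). The ± values beside log2 fold changes are standard errors. The 11 left out had few UMIs in the class sums. Col2a1, the cartilage fibril chain, had 1124 UMIs over all nuclei and its highest mean, 9.45 CPM, in round spermatids. Col24a1, another minor fibrillar chain, had 1642 UMIs and its highest mean, 15.2 CPM, in round spermatids too. Col6a6, a collagen VI chain, had 595 UMIs and its highest mean, 40.9 CPM, in fibroblasts. Col17a1 of hemidesmosomes, Lama5, Col11a2, Col8a2, Col5a3, Col10a1 of growth plate cartilage and Col9a2 had between 24 and 349 UMIs each over all nuclei.

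Myoid nuclei had 22 of the 44 tested genes higher than the other non-germ classes and 1 lower, Lama3 (-1.49 ± 0.46, adjusted p = 0.0200). Over all tested genes, 10.5% were called higher and 4.01% lower in myoid nuclei. The median log2 fold change was 1.35 for the collagen and laminin genes and -0.04 for all genes. All 6 collagen IV chains, 5 of 7 tested fibrillar chains and 4 of 7 tested chains of collagens VI, VII and XXVIII were among the 22. The 6 genes with the highest folds were Col8a1, Col4a3, Col4a4, Col6a2, Col1a2 and Lama2.

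Col8a1, a short-chain collagen that forms networks in vessel walls, was at 309.9, 226, 417 and 299.8 CPM in myoid nuclei. The next class was endothelial, at 92.9, 64.7, 63.6 and 5.44 CPM, and no myoid library overlapped with it. Over the 4 libraries the log2 fold change in myoid nuclei was 6.19 ± 0.30 (adjusted p = 1.1e-21). In fibroblasts Col8a1 reached at most 11.9 CPM. Col6a4, a collagen VI chain, had 167, 77.8, 167 and 141 CPM in myoid nuclei and 34.6, 47.5, 37.8 and 32.0 CPM in fibroblasts, with a log2 fold change in myoid nuclei of 4.00 ± 0.25 (adjusted p = 1.2e-17). Col8a2, the partner of Col8a1, was not tested, and it had 17, 7.78, 54.1 and 27.3 CPM in myoid nuclei and at most 9.12 CPM in any other class.

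Col12a1, a collagen attached to the surface of fibrils, was uneven among the myoid libraries. Its UMIs there were 0, 5, 56 and 15, or 0, 38.9, 144 and 68.1 CPM, and the log2 fold change was 4.51 ± 0.48 (adjusted p = 1.7e-10). WT replicate 1 held none at all, while both Dhx37-/- libraries were above both WT libraries.

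Fibroblasts had 27 of the 44 tested genes higher and 0 lower, against 10.8% and 4.15% of all genes. The median log2 fold change was 1.98 for the collagen and laminin genes and -0.01 for all genes. The highest folds were those of Lama2, Col1a2, Col5a2, Col6a2, Col3a1 and Col1a1, which are, Lama2 apart, chains of the interstitial fibrils and filaments. With only the nuclei of few germ markers, 26 of the 27 genes in fibroblasts and all 22 in myoid nuclei were called higher again, and Lama3 was not called in myoid nuclei. In that selection 26 of 42 genes were higher in fibroblasts and 23 in myoid nuclei, beside 1566 and 1346 of all 13878 genes.

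Collagen I, the main fibril of connective tissue, exceeded the free RNA of every library in fibroblasts and myoid nuclei and in no other class. Col1a1 was at 156, 174, 217 and 166 CPM in fibroblasts and 112, 85.6, 196 and 145 CPM in myoid nuclei. Its partner chain Col1a2 was at 418, 313, 593 and 482 CPM in fibroblasts and 296, 280.1, 484 and 395 CPM in myoid nuclei. Both were higher in fibroblasts than in myoid nuclei within each of the 4 libraries, but the ranges of the classes overlapped. The log2 fold changes in fibroblasts were 4.79 ± 0.25 (adjusted p = 2.5e-20) for Col1a1 and 5.26 ± 0.24 (adjusted p = 1.2e-22) for Col1a2. Sertoli nuclei had 1.37, 0, 2.67 and 3.02 CPM of Col1a1, below the 12.7, 6.94, 16.1 and 12.1 CPM of the empty droplets.

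Collagen III accompanies collagen I in pliable tissues, and collagen V starts and narrows the fibrils. Col3a1 stood at 336, 229.7, 476 and 371 CPM in fibroblasts and 198, 101, 489 and 273 CPM in myoid nuclei (4.86 ± 0.23, adjusted p = 8.5e-22 in fibroblasts). Col5a2 was at 111, 79.2, 131 and 83.1 CPM in fibroblasts, at 57.9, 23.3, 106 and 81.8 CPM in myoid nuclei and at 0 UMIs in macrophages. Its log2 fold change in fibroblasts was 5.21 ± 0.34 (adjusted p = 2.9e-16). Because Col5a2, Col6a2 and Col18a1 had 0 UMIs in macrophage-gated nuclei, which are among the reference classes, their fitted folds depend on the prior count of the fit and are no bounds. Col5a1, the partner of Col5a2, was not restricted to these classes: round spermatids had 81.2, 144, 71.4 and 98.2 CPM and fibroblasts 124, 115, 67.3 and 81.0 CPM.

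Collagen VI is assembled from the products of Col6a1, Col6a2 and a further chain such as Col6a3. Col6a1 was at 101, 83.2, 117 and 76.7 CPM in fibroblasts and 57.9, 70.0, 92.7 and 59.1 CPM in myoid nuclei. Col6a2 was at 29.6, 31.7, 52.5 and 29.8 CPM in fibroblasts and 37.5, 23.3, 30.9 and 72.7 CPM in myoid nuclei. Col6a3 was at 84.0, 87.1, 77.2 and 38.4 and 92.0, 54.5, 97.8 and 86.3 CPM. All 3 were called higher in both classes, and for none of them did fibroblasts and myoid nuclei separate. Of the 3, Col6a1 alone was higher in Leydig nuclei, at 6.98, 9.09, 19.1 and 14.7 CPM (1.17 ± 0.41, adjusted p = 0.0178), while Col6a3 was lower there (-2.79 ± 0.66, adjusted p = 0.000594) and Col6a2 had at most 1.12 CPM. With few germ markers Col6a1 was called again in Leydig nuclei while Col6a3, at -1.85 with a standard error of 83.6, could not be tested.

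The collagen IV chains form pairs of genes that lie head to head on a chromosome, Col4a1 with Col4a2, Col4a3 with Col4a4 and Col4a5 with Col4a6. The RefSeq promoter windows of Col4a1 and Col4a2, each running from 250 bases before to 50 bases after the transcript start in GRCm38.p6, are shown because the pair is read in opposite directions from a shared stretch and its chains were high and low in the same non-germ classes. The window of Col4a1 is at chr8:11312777-11313076 on the minus strand and that of Col4a2 at chr8:11312555-11312854 on the plus strand. They overlap by 78 bases, given in capitals, and the capitals of one are the reverse complement of the other.
Col4a1: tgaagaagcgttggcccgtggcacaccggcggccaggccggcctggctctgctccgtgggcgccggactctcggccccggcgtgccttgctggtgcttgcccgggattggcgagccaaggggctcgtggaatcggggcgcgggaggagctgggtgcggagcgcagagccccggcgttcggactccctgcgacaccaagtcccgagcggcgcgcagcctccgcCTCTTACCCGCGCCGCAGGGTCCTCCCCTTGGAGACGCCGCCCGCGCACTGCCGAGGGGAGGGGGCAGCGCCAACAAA
Col4a2: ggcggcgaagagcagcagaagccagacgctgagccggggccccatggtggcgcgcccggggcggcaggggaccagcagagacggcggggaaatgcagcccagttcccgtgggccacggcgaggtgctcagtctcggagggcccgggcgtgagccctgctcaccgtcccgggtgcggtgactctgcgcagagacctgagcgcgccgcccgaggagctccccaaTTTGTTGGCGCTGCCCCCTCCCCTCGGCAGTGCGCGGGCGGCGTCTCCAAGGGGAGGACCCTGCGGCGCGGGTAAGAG
Both windows are rich in G and C, at 74.0% and 73.7% against a median of 52.7% over 32851 promoter windows. The letters CCAAT, searched on both strands, occur once in each window and in 37.4% of all windows. The letters GGGCGG occur once in the Col4a1 window and 3 times in the Col4a2 window, and in 35.7% of all windows. TATAAA is in neither and in 13.6% of all windows. Windows were found for 40 of the 55 genes by symbol. Those of Col4a5 and Col4a6 also face away from each other, with 842 bases between them.

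Within the first pair, which makes the collagen IV of nearly every basement membrane, the chains were ordered alike from myoid nuclei to Leydig nuclei. Col4a1 was at 467, 335, 363 and 486 CPM in myoid nuclei, 225, 209.9, 208 and 239 CPM in fibroblasts, 83.0, 111, 58.7 and 65.2 CPM in endothelial nuclei and 20.9, 40.9, 29.7 and 30.4 CPM in Leydig nuclei. Col4a2 was at 351, 226, 329.5 and 268 CPM in myoid nuclei, 237, 186, 227 and 258 CPM in fibroblasts, 86.3, 111, 63.6 and 27.2 CPM in endothelial nuclei and 29.7, 27.3, 26.9 and 33.2 CPM in Leydig nuclei. Sertoli nuclei were lower than the other classes for both. They had 1.01 to 28.6 CPM of Col4a1 (-3.32 ± 0.39, adjusted p = 1.1e-09) and 2.86 to 5.49 CPM of Col4a2 (-3.50 ± 0.47, adjusted p = 4.2e-08). Endothelial nuclei were higher than the mean of the other classes for both, Col4a2 by 1.10 ± 0.30 (adjusted p = 0.00302) and Col4a1 by 0.76 ± 0.31 (adjusted p = 0.0430). The ratio of the UMIs of a pair depends on both transcripts, so it is compared between classes only. For Col4a1 over Col4a2 it was 1.34 in myoid nuclei, 0.95 in fibroblasts and 0.97 in Leydig nuclei, but 2.37 in round spermatids and 0.64 in elongating spermatids. The library range in round spermatids, 1.83 to 2.61, stood above that in elongating spermatids, 0.31 to 0.90.

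Col4a3 and Col4a4, whose chains join that of Col4a5 in the network affected in Alport syndrome, were highest in myoid nuclei by a wide margin. In myoid nuclei Col4a3 was at 2435, 1688, 2701 and 2807 CPM and Col4a4 at 3289.8, 2629, 3645 and 3889 CPM. Fibroblasts were next, with 427, 301, 448 and 401 CPM of Col4a3 and 899, 867, 1023 and 865 CPM of Col4a4. For both genes the lowest myoid library was above the highest fibroblast library. The log2 fold changes in myoid nuclei were 5.79 ± 0.20 (adjusted p = 2.9e-27) for Col4a3 and 5.58 ± 0.18 (adjusted p = 8.6e-28) for Col4a4. Sertoli nuclei had 43.9, 34.3, 82.8 and 78.1 CPM of Col4a3 and 106, 126, 121 and 105 CPM of Col4a4, above the empty droplets of their own library in every library. Leydig nuclei were called lower for both (-3.76 ± 0.35, adjusted p = 2.6e-12 and -2.21 ± 0.28, adjusted p = 7.0e-09), and so were endothelial nuclei (-0.93 ± 0.34, adjusted p = 0.0226 and -2.89 ± 0.35, adjusted p = 8.8e-09). In endothelial nuclei of few germ markers Col4a4 was called lower again and Col4a3 was not (-0.39 ± 0.42, adjusted p = 0.600). Elongating spermatids parted the pair, with 58.9 to 109 CPM of Col4a4 and 4.27 to 9.86 CPM of Col4a3. The ratio of Col4a3 to Col4a4 UMIs was 0.73 in myoid nuclei, 0.44 in fibroblasts, 1.04 in round spermatids and 0.09 in elongating spermatids.

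Col4a5 and Col4a6 went together in myoid nuclei and fibroblasts and apart in Leydig nuclei. Col4a5 was at 501, 327, 476 and 323 CPM in myoid nuclei, 185, 206, 235 and 259.9 CPM in fibroblasts and 182, 116, 171 and 184 CPM in Leydig nuclei. Col4a6 was at 409, 218, 438 and 391 CPM in myoid nuclei, 143, 178, 239.7 and 259.9 CPM in fibroblasts and 28.8, 31.8, 29.2 and 38.9 CPM in Leydig nuclei. In Leydig nuclei Col4a5 was called higher (2.39 ± 0.23, adjusted p = 3.8e-12) and Col4a6 did not pass the test (0.60 ± 0.27, adjusted p = 0.0640). The ratio of Col4a5 to Col4a6 UMIs was 1.10 in myoid nuclei, 5.27 in Leydig nuclei and 8.38 in round spermatids. Per library it ran from 0.83 to 1.5, from 3.64 to 6.33 and from 7.48 to 10.2, so that no ranges overlapped. In elongating spermatids the ratio was 0.35. Both chains were lower in endothelial nuclei, with log2 fold changes of -1.87 ± 0.43 (adjusted p = 0.000500) for Col4a5 and -3.73 ± 0.57 (adjusted p = 1.2e-06) for Col4a6, the latter on 3 UMIs. With few germ markers Col4a6 was called lower again and Col4a5 was not (-1.20 ± 0.63, adjusted p = 0.216).

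**Figure D2:**
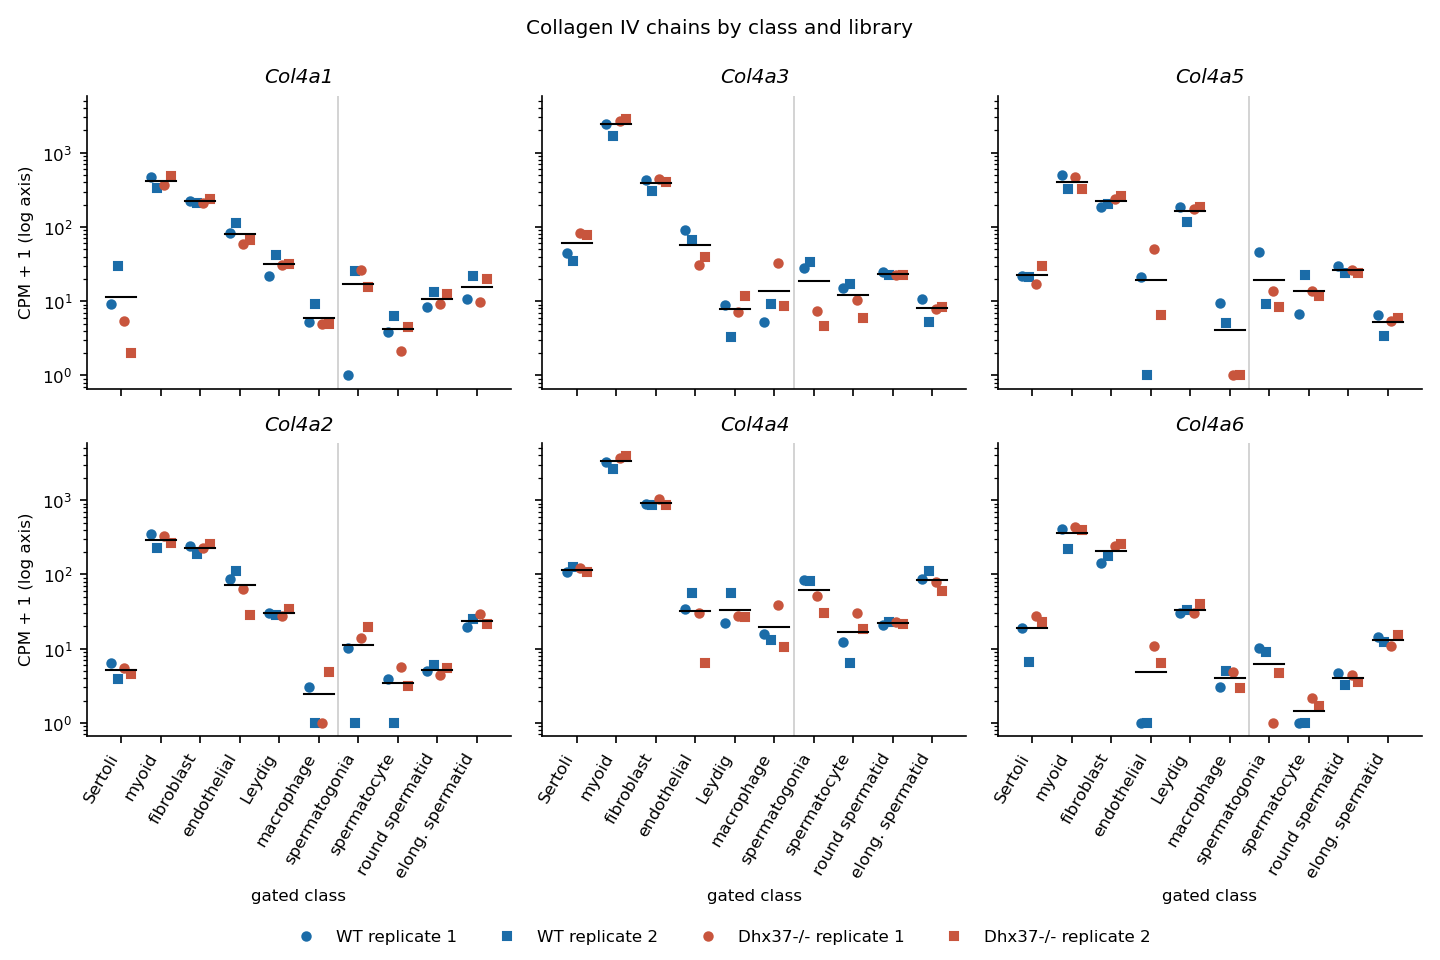
CPM plus 1 (log axis) of the 6 collagen IV chains in the 10 gated classes, 1 panel per gene, partners one above the other; each point is a library and each bar the mean of 4 libraries. Col4a3 and Col4a4 peak in myoid nuclei, and Col4a5 stays high in Leydig nuclei where Col4a6 is low.

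The laminin alpha chains were divided among the classes. Lama1, the alpha chain of the laminin of embryonic and seminiferous tubule basement membranes, was highest in Sertoli nuclei, at 385, 177, 452 and 582 CPM. Myoid nuclei had 174, 70.0, 157 and 159, fibroblasts 66.7, 27.7, 108 and 100.1 and Leydig nuclei 89.9, 43.2, 57.8 and 69.7 CPM. The lowest Sertoli library, WT replicate 2, was above every library of the myoid, fibroblast and Leydig nuclei. Its log2 fold change in Sertoli nuclei was 4.03 ± 0.20 (adjusted p = 5.0e-21). In Sertoli nuclei with few germ markers Lama1 was at 537, 508, 678 and 682 CPM and the log2 fold change was 4.85 ± 0.22 (adjusted p = 1.6e-26).

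Lama2, the alpha chain of muscle and peripheral nerve, was highest in fibroblasts, at 2129.7, 1786, 2223 and 1915 CPM, and next in myoid nuclei, at 1842, 1011, 1509 and 1222 CPM. It led the fibroblast comparison (5.36 ± 0.19, adjusted p = 2.0e-26) and was high in the myoid one (4.75 ± 0.20, adjusted p = 2.9e-24). Lama4, the chain of vessel walls, was highest in endothelial nuclei, at 209, 231, 328 and 59.8 CPM, and then in Leydig nuclei, at 196, 109, 138 and 153 CPM, and fibroblasts, at 116, 107, 117 and 93.7 CPM. Only Dhx37-/- replicate 2 was low among the endothelial libraries, the library in which the endothelial markers were also low. The log2 fold changes of Lama4 were 3.03 ± 0.28 (adjusted p = 9.9e-12) in endothelial and 3.24 ± 0.24 (adjusted p = 1.3e-15) in Leydig nuclei. Sertoli nuclei had 1.01 to 5.49 CPM of Lama4 and were lower than the other classes (-4.35 ± 0.48, adjusted p = 2.8e-10). Lama3, an epithelial chain, was low in myoid nuclei at 10.2, 0, 10.3 and 13.6 CPM, and its levels in endothelial nuclei (63.1 to 157 CPM) and elongating spermatids (69.5 to 129 CPM) overlapped. Lama5, an alpha chain of mature epithelia and vessels, had at most 40.5 CPM in any class and library and 0 UMIs in fibroblasts.

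The beta and gamma chains complete the laminin with any of these alpha chains. Lamb1 was at 210.0, 190.1, 256 and 226 CPM in fibroblasts, 163, 77.8, 77.2 and 195 CPM in myoid nuclei and 64.6, 52.2, 51.6 and 37.9 CPM in Leydig nuclei, and it was called higher in all of them (3.70 ± 0.25, 2.84 ± 0.30 and 1.62 ± 0.29). In Sertoli nuclei it was at 2.75 to 11.4 CPM and lower (-2.25 ± 0.48, adjusted p = 0.000185). Lamb2 was at 168, 123, 200.3 and 151 CPM in fibroblasts, above every library of the myoid nuclei, which had 74.9, 46.7, 79.8 and 109 CPM. Lamc1, the gamma chain of most laminins, was the 1 gene of the 55 that exceeded the free RNA of every library in all 6 non-germ classes. It ran from 128, 131, 167 and 134 CPM in fibroblasts through 111, 75.0, 83.0 and 104 CPM in Leydig and 35.7, 28.6, 52.5 and 40.8 CPM in Sertoli nuclei to 1.40 to 2.63 CPM in round spermatids. Lamc3 was at 593, 342, 592 and 499.7 CPM in myoid nuclei and 425, 273, 447 and 313 CPM in fibroblasts, with overlapping ranges, and at 0.890 to 5.49 CPM in Sertoli nuclei. Lamb3, a beta chain of skin and other epithelia that joins Lama3, was highest in elongating spermatids, at 21.2 to 54.0 CPM.

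**Figure D3:**
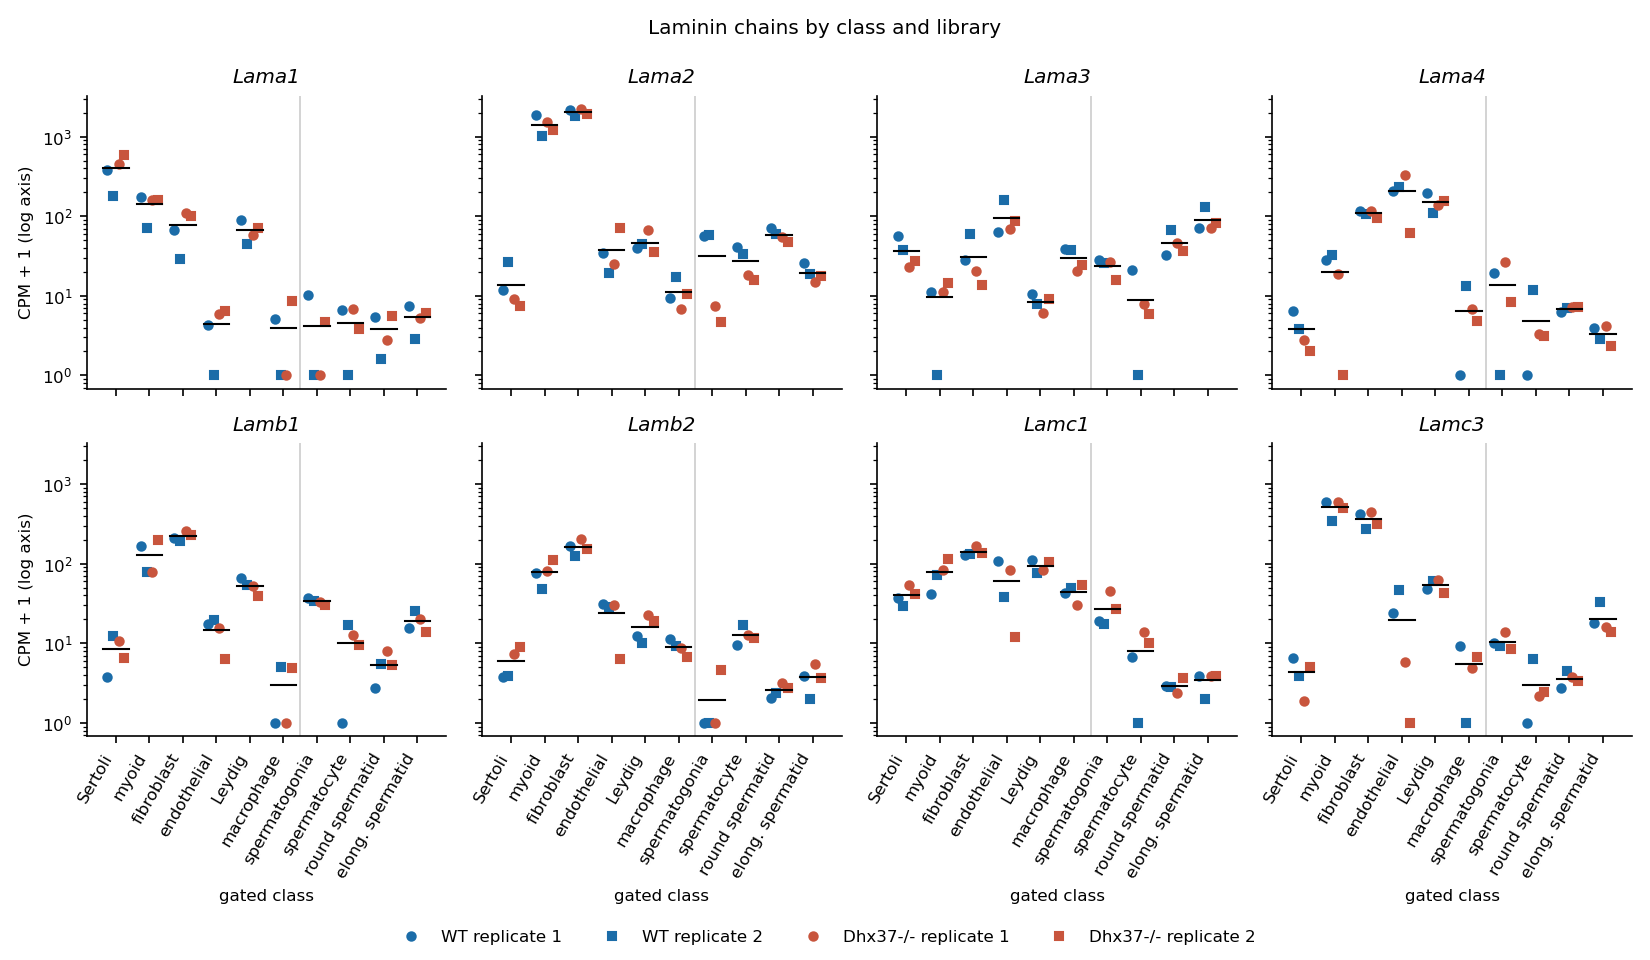
CPM plus 1 (log axis) of 8 laminin chains in the 10 gated classes, 1 panel per gene; each point is a library and each bar the mean of 4 libraries. Lama1 is highest in Sertoli nuclei, Lama2 and Lamc3 in fibroblasts and myoid nuclei, and Lama4 in endothelial and Leydig nuclei.

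Sertoli nuclei had 4 of the 44 tested genes higher and 19 lower, against 20.2% and 14.7% of all genes. The median log2 fold change was -0.91 for these genes and 0.01 for all genes. The 4 were Col18a1, Lama1, Col27a1 and Col28a1. In the nuclei with few germ markers 5 of 42 genes were higher and 14 lower, beside 3742 and 2215 of all 13878 genes. Lama3 was then called higher (1.499 ± 0.33, adjusted p = 0.00015). Newly called lower were Col14a1 (-2.67 ± 0.73, adjusted p = 0.0020), Col15a1 (-1.95 ± 0.36, adjusted p = 9.1e-06) and Col16a1 (-1.10 ± 0.39, adjusted p = 0.017). All 4 genes named above were higher again, while 11 of the 19 lower genes were called again. Of those not called again, Col6a4 went from -1.63 to -1.61 ± 0.68 (adjusted p = 0.0524) and Col4a5 from -1.48 to -0.86 ± 0.50 (adjusted p = 0.167). Col1a2, Col4a2, Col6a1, Col8a1, Col11a1 and Col23a1 had estimates of -5.87 to -1.41 with standard errors of at least 56.1, so that they could not be tested in this selection. Col18a1, the precursor of endostatin in basement membranes, was at 61.8, 8.57, 116 and 76.1 CPM in Sertoli nuclei and 126, 83.2, 63.6 and 16.3 CPM in endothelial nuclei, with WT replicate 2 low in the former and Dhx37-/- replicate 2 low in the latter. Its log2 fold change was 4.13 ± 0.43 (adjusted p = 1.4e-10) in Sertoli and 3.99 ± 0.56 (adjusted p = 2.9e-07) in endothelial nuclei. Col27a1, a cartilage fibril chain, had 93.4, 62.8, 47.2 and 53.4 CPM in Sertoli nuclei and 179, 189, 124 and 149 CPM in elongating spermatids. Its Sertoli fold was 1.84 ± 0.25 (adjusted p = 6.7e-08) and, with few germ markers, 2.93 ± 0.30 (adjusted p = 1.4e-12). Col28a1, a collagen of peripheral nerve sheaths, had 70.0, 28.6, 26.7 and 36.8 CPM (1.66 ± 0.28, adjusted p = 3.9e-06) and was higher still in round spermatids. In the nuclei with few germ markers its UMIs were 30, 0, 24 and 62.

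Among the 19 lower genes in Sertoli nuclei the most negative were Col6a1 (-4.70 ± 1.05, adjusted p = 0.000323), Lama4 (-4.35 ± 0.48) and Lamc3 (-4.08 ± 0.45, adjusted p = 2.1e-10). Sertoli nuclei had 2 UMIs of Col6a1 in all. The laminin chains detected in Sertoli nuclei above the empty droplets of every library were thus Lama1, Lama3 and Lamc1, and the collagen chains were Col4a3, Col4a4, Col6a6, Col11a2, Col18a1 and Col27a1. For Col6a6 and Col11a2 this rested on at most 15.1 CPM. The laminin beta chains in Sertoli nuclei stayed at or below 11.4 CPM for Lamb1, 8.06 CPM for Lamb2 and 20.0 CPM for Lamb3.

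Leydig nuclei, the androgen-producing cells, had 10 genes higher and 18 lower, against 26.2% and 21.7% of all genes, with median log2 fold changes of -0.81 for the collagen and laminin genes and -0.03 for all genes. Without TMM scaling 7 were higher and 23 lower, beside 2295 and 5787 of all 15152 genes. Col11a1, a minor fibrillar chain best known from cartilage, led them, at 59.3, 61.3, 88.6 and 54.1 CPM (4.42 ± 0.34, adjusted p = 5.2e-15). Myoid nuclei were next, at 27.2, 15.6, 72.1 and 81.8 CPM, with overlapping ranges, and every other class stayed at or under 12.2 CPM. After Col11a1 came Lama4, Col4a5, Lamb1, Col7a1 and Lama1. Col7a1, the collagen of anchoring fibrils, was at 2.62, 2.27, 7.29 and 8.06 CPM in Leydig nuclei (1.36 ± 0.50, adjusted p = 0.0230). Lama1 in Leydig nuclei was higher by 1.32 ± 0.26 (adjusted p = 4.7e-05). The most negative were Col4a3, Col1a1 (-3.33 ± 0.53, adjusted p = 1.3e-06) and Col8a1 (-2.81 ± 0.68, adjusted p = 0.000771). In the Leydig nuclei of few germ markers 10 of 42 genes were higher and 8 lower, beside 3604 and 1005 of all 13878 genes. Col22a1 was then called higher (0.95 ± 0.27, adjusted p = 0.00401), and 17 of the 28 calls were made again. Col6a3, Col6a4, Col8a1, Col12a1, Col14a1, Col16a1, Col19a1, Col25a1, Col28a1 and Lama2 were not called, with estimates from -1.85 to 0.73, and Col7a1 was not tested.

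Endothelial nuclei had 16 genes higher and 11 lower, against 23.5% and 23.0% of all genes. These genes had a median log2 fold change of 0.24, and all genes one of -0.12. Col18a1, Col5a2, Lama4, Col8a1, Col23a1 and Col9a1 had the highest folds. Col5a2 was at 49.8, 0, 58.7 and 16.3 CPM (3.12 ± 0.54, adjusted p = 1.1e-05) and Col8a1 was higher by 3.00 ± 0.46 (adjusted p = 1.1e-06). Col23a1, a transmembrane collagen, stood at 26.6, 0, 323 and 27.2 CPM and was high in Dhx37-/- replicate 1 only (2.61 ± 0.46, adjusted p = 1.1e-05). In nuclei with few germ markers 10 of 42 genes were higher and 6 lower, beside 969 and 1152 of all 13878 genes. Col15a1 was then called higher (1.26 ± 0.38, adjusted p = 0.0162), and 14 of the 27 calls were made again. Those not made were Col5a1, Col9a1, Col9a3, Col16a1, Col19a1, Col22a1, Col25a1 and Lama3 among the higher and Col4a3, Col4a5, Col6a1, Col11a1 and Lamc3 among the lower genes. Their estimates then ran from -5.66 (Col19a1, at 0 UMIs) to 1.38 (Lama3) for the former and from -7.22 (Col6a1) to -0.39 (Col4a3) for the latter. Col18a1, Col5a2, Lama4 and Col8a1 were called again, Lama4 at 336, 560.2, 575 and 159 CPM. Col9a1, a chain of a fibril-associated collagen, was not: its log2 fold change was 2.10 ± 0.54 (adjusted p = 0.00143) in all endothelial-gated nuclei and -0.40 ± 1.80 (adjusted p = 0.940) in those of few germ markers, where its UMIs were 1, 0, 0 and 0. Col22a1 likewise went from 1.66 ± 0.23 (adjusted p = 1.4e-07) to -0.14 ± 0.45 (adjusted p = 0.904). The most negative genes were Lama1 (-4.38 ± 0.56, adjusted p = 3.1e-08), Col3a1 (-3.92 ± 0.72, adjusted p = 2.4e-05) and Col1a2 (-3.90 ± 0.76, adjusted p = 5.3e-05).

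Germ classes were compared as the mean of the 4 germ classes against the mean of the 6 non-germ classes. Of the 44 genes, 12 were higher and 20 lower, against 43.0% and 32.7% of all genes. For the 44 genes the median log2 fold change was -0.55, and for all genes 0.17. With non-germ nuclei of few germ markers 16 of 42 genes were higher and 13 lower, against 6736 and 4320 of all 13878 genes, with medians of -0.29 and 0.37, and 23 of the 32 calls were made again. Lamb1 (-0.92 ± 0.48, adjusted p = 0.0746) was not called lower and Col8a1 was at 0.65 ± 0.52. Col1a2, Col4a2, Col6a1, Col6a3 and Col11a1 had estimates of -3.18 to -0.41 with standard errors of at least 4.51, and Col6a5 and Col7a1 were not tested. With all gated nuclei, all 6 collagen IV chains, 3 of 4 tested laminin alpha chains and both tested gamma chains were lower. The lowest were Col6a1 (-3.82 ± 0.89, adjusted p = 0.000219), which had 0 UMIs in spermatogonia so that its fold is no bound, Lamc1 (-3.53 ± 0.18, adjusted p = 5.0e-21) and Lama1 (-3.47 ± 0.41, adjusted p = 5.6e-10). Of 9 tested genes grouped here as fibril-associated collagens, 6 were higher and none lower. The group takes in Col26a1, which is not usually counted as one and was not called (0.44 ± 0.27, adjusted p = 0.131). The 6 genes with the highest germ folds were Col28a1 (1.64 ± 0.21, adjusted p = 4.9e-09), Col16a1 (1.58 ± 0.15, adjusted p = 2.9e-12), Col25a1 (1.28 ± 0.19, adjusted p = 8.9e-08), Col22a1 (1.27 ± 0.14, adjusted p = 1.7e-10), Col7a1 (1.21 ± 0.39, adjusted p = 0.00519) and Col19a1 (1.11 ± 0.24, adjusted p = 6.1e-05). In the comparison with few germ markers Col19a1 had the highest fold, 4.04 ± 0.42 (adjusted p = 2.2e-12), which is no bound because its UMIs in endothelial nuclei were then 0. Col22a1 followed at 3.07 ± 0.17, Col28a1 was at 2.69 ± 0.30, Col16a1 at 2.67 ± 0.19 and Col25a1 at 2.61 ± 0.23, and Col7a1 was not tested.

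Round and elongating spermatids, the haploid cells before and during reshaping of the nucleus, held different collagens. No test between them was fixed, and their levels are described. Col22a1, a collagen of tissue junctions such as those of muscle and tendon, was at 1275, 1631, 1447 and 1844 CPM in round spermatids and 277, 342, 296 and 503 CPM in elongating spermatids, with 321 to 519 CPM in empty droplets. It had 124110 UMIs over all nuclei. Col28a1 was at 123, 135, 104 and 101 CPM in round and 49.8, 38.4, 35.7 and 34.0 CPM in elongating spermatids. Col19a1, a fibril-associated collagen, was at 118, 110.2, 108 and 87.2 CPM in round and 18.7, 12.6, 8.61 and 12.3 CPM in elongating spermatids. In none of these genes did the round spermatid libraries overlap with the class second by mean.

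Elongating spermatids were highest for Col15a1, a basement membrane collagen related to Col18a1, at 483, 816, 624 and 651 CPM against 31.8, 24.8, 36.5 and 25.8 CPM in round spermatids and 237, 289, 223 and 247 CPM in fibroblasts. Col9a3, a chain of a fibril-associated collagen of cartilage, was at 212, 250.1, 191 and 288 CPM in elongating against 12.7, 8.73, 16.5 and 8.60 CPM in round spermatids. Col26a1 was at 194, 238, 195 and 211 CPM against 5.88, 3.91, 7.86 and 4.17 CPM. For all 3 every elongating spermatid library stood above every round spermatid library. Col20a1 stood at 167, 221, 277 and 221 CPM, with 59.9, 90.8, 158 and 106 CPM in the empty droplets of the same libraries. Col27a1 completed the 5 genes whose elongating spermatid libraries all stood above every library of the class second by mean. Col25a1, a transmembrane collagen of neurons, was also highest there by mean, at 239, 220.2, 137 and 166 CPM, but overlapped with spermatogonia at 146, 131, 108 and 203 CPM. Col16a1, a fibril-associated collagen, was high in both, at 341, 443, 292 and 433 CPM in elongating and 245, 352, 287 and 297 CPM in round spermatids. Col13a1, a transmembrane collagen of nerve-muscle contacts, was highest in spermatogonia, at 45.6, 57.1, 50.9 and 81.0 CPM, and Col14a1 in macrophages, at 81.3, 122, 35.2 and 27.1 CPM, where both WT libraries were above both Dhx37-/- libraries and no genotype test was made.

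**Figure D4:**
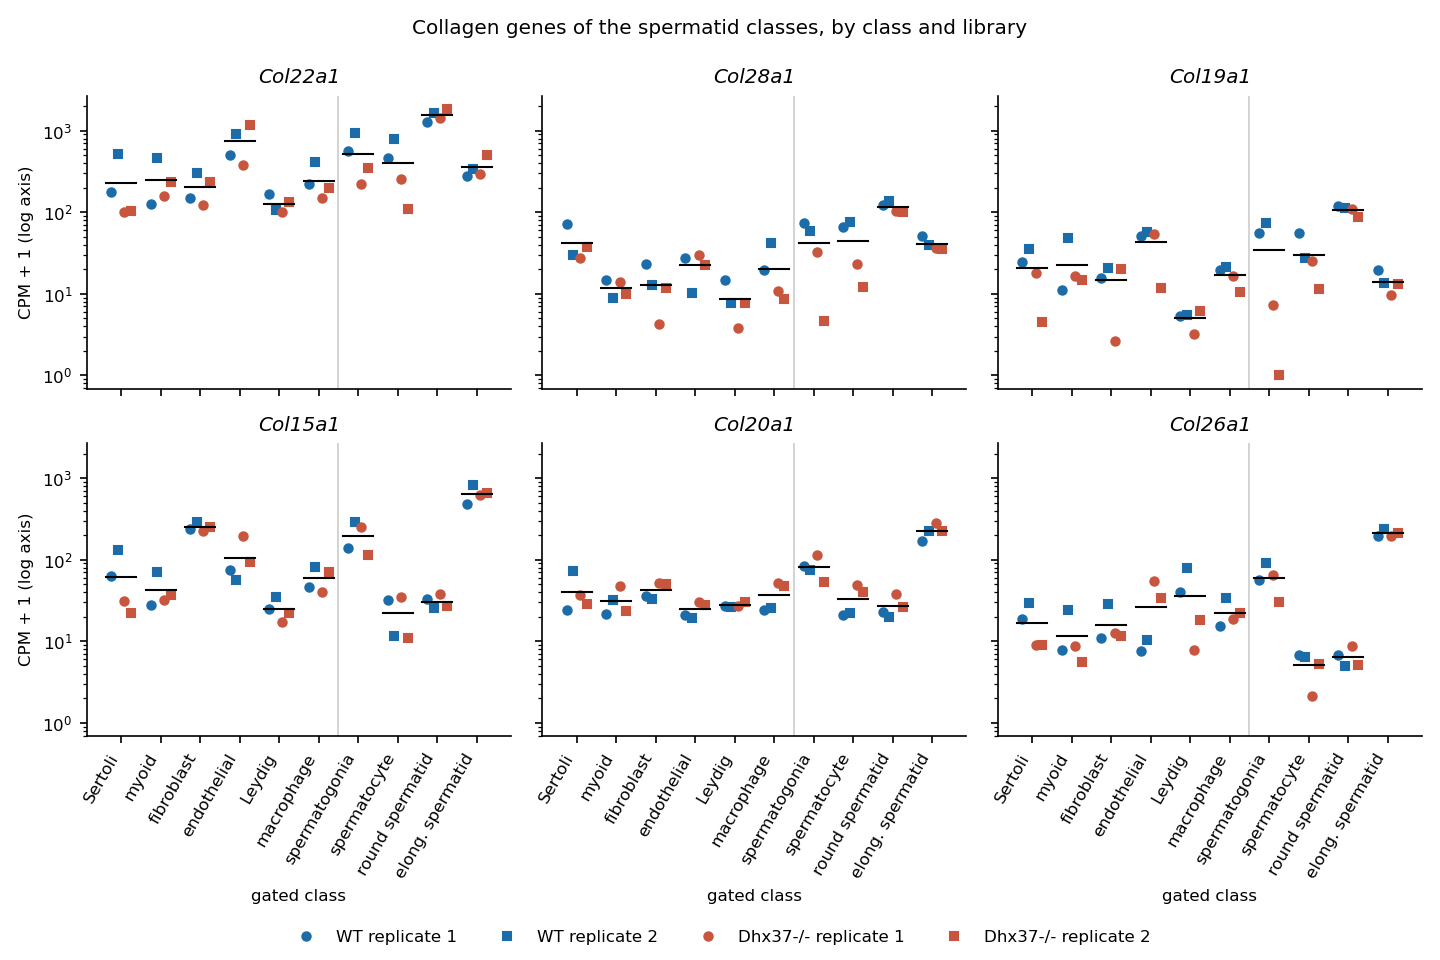
CPM plus 1 (log axis) of 6 collagen genes in the 10 gated classes, 1 panel per gene; each point is a library and each bar the mean of 4 libraries. The upper panels peak in round spermatids and the lower panels in elongating spermatids.

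The genes that make, modify, bind and cut these chains were counted in 5 lists. In myoid nuclei 8 of 12 tested basement membrane partners, 6 of 10 interstitial matrix proteins, 9 of 15 collagen-processing enzymes, 10 of 15 matrix receptors and 3 of 6 proteases and inhibitors were higher, and 1 receptor and 1 gene of the last list were lower, beside 10.5% and 4.01% of all genes. Elastin, Eln, was higher there by 5.97 ± 0.28, the procollagen-cutting enzyme Adamts2 by 5.89 ± 0.30, the integrin chains Itga8 and Itga1 by 6.36 ± 0.27 and 4.77 ± 0.20, and Frem1 and Ntn4 of basement membranes by 5.22 ± 0.29 and 4.49 ± 0.24. Adamts14 was higher by 5.53 ± 0.46 in myoid nuclei. Mmp16 was higher by 6.08 ± 0.41 in myoid nuclei and by 4.47 ± 0.48 in fibroblasts. In fibroblasts 7, 6, 9, 4 and 4 genes of the same lists were higher and 0, 0, 0, 2 and 1 lower, beside 10.8% and 4.15% of all genes. Adamts5, a proteoglycan-cutting enzyme, was higher there by 6.83 ± 0.24, Adamts2 by 5.63 ± 0.29, Tnxb by 4.78 ± 0.30 and the collagen receptor Ddr2 by 4.78 ± 0.25. In Sertoli nuclei 3, 0, 1, 4 and 0 were higher and 4, 5, 5, 7 and 2 lower, beside 20.2% and 14.7% of all genes. The syndecan Sdc4 was higher by 3.72 ± 0.38, and Bgn, a small proteoglycan, was lower (-5.32 ± 0.64). In Leydig nuclei 3, 1, 4, 4 and 3 were higher and 5, 6, 4, 5 and 0 lower, beside 26.2% and 21.7% of all genes. They were higher for Smoc1 (5.11 ± 0.21), Mmp16 (3.48 ± 0.51), Ddr2 (3.19 ± 0.27) and the lysyl hydroxylase Plod2 (2.99 ± 0.24), and lower for Frem1 (-4.53 ± 0.67) and Eln (-3.82 ± 0.69). In endothelial nuclei 2, 3, 0, 4 and 2 were higher and 4, 2, 6, 5 and 3 lower, beside 23.5% and 23.0% of all genes. They were higher for Eln (3.17 ± 0.38) and Fbn1 (2.79 ± 0.34), lower for Ddr2 (-4.71 ± 0.84, on 1 UMI), and had 0 UMIs of Adamts2. In the germ classes 1, 4, 0, 3 and 1 were higher and 7, 6, 10, 7 and 4 lower, beside 43.0% and 32.7% of all genes, with the prolyl hydroxylase P4ha1 at -3.30 ± 0.18. The highest adjusted p among the folds given here was 1.6e-05, that of Eln in Leydig nuclei.

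Between the genotypes the Sertoli nuclei, the targeted class, were compared first. Of 21 genes tested, 0 were called higher and 1 lower in Dhx37-/- nuclei, against 2.38% of all 12461 genes called and 2.34% called lower. The 1 gene was Col25a1, with levels of 61.8 and 45.7 CPM in WT and of 8.90 and 10.1 CPM in Dhx37-/- nuclei (-2.51 ± 0.49, adjusted p = 0.0395, edgeR, 2 against 2 libraries). Col25a1 passed the filter on low counts through the WT libraries alone. Without that filter it was called among 5 genes, all lower, beside 821 of all 30305 genes. Empty droplets held 65.2, 37.3, 26.8 and 26.7 CPM of it, so that the WT Sertoli level was near that of free RNA. In the Sertoli nuclei with few germ markers the UMIs of Col25a1 were 6, 0, 5 and 10, it was not tested, and 0 of 8784 genes were called. Col25a1 was not called with a stricter gate of 4 markers, without TMM scaling, with nuclei thinned to equal depth, with the replicate number as a block, with barcodes taken by the study's limits alone, where Col5a1 was called in its place, or without Dhx37-/- replicate 1 or Dhx37-/- replicate 2. The median log2 fold change in Sertoli nuclei was -0.96 for the collagen and laminin genes and 0.08 for all genes, and 15 of the 21 estimates were below 0. Without the filter on low counts the medians were 0.02 for 54 genes, 27 of them above 0, and 0.21 for all genes. With few germ markers the medians were -0.09 for 12 tested genes, 5 of them above 0, and 0.00 for all genes. After Col25a1 the lowest p were those of Col5a1 (-2.42 ± 0.59, adjusted p = 0.0584) and Col15a1 (-1.90 ± 0.47, adjusted p = 0.0584), whose highest mean levels were in round and in elongating spermatids. Round spermatid markers in the Sertoli-gated nuclei were at 649.5, 1339, 876 and 586 CPM beside the elongating spermatid markers given above, both highest in WT replicate 2, and their part in these values was not tested. Without WT replicate 1, 10 genes were called beside 2201 of all 14650 genes, namely Col4a1, Col5a1, Col9a3, Col14a1, Col15a1, Col16a1, Col18a1, Col19a1, Col22a1 and Col25a1. Of these, 1 was higher and 9 lower. Without WT replicate 2, Col15a1 and Col25a1 were called beside 679 of all 14086 genes.

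Lama1 and the 4 tested collagen IV chains, Col4a3 to Col4a6, did not pass the genotype test in Sertoli nuclei. Lama1 was at 385 and 177 CPM in WT and 452 and 582 CPM in Dhx37-/- nuclei (0.86 ± 0.53, adjusted p = 0.486). With few germ markers these became 537 and 508 against 678 and 682 CPM (0.30 ± 0.21, adjusted p = 0.707). The groups did not overlap in either selection. How often the genotype groups did not overlap was not counted over all genes, for this or any other class, so such statements describe levels only. The summed Sertoli markers in all Sertoli-gated nuclei were at 2583, 2558, 4254 and 3679 CPM, also higher in both Dhx37-/- libraries, and their part in the genotype values was not tested. The median depth of these nuclei was 3904, 3066, 1457 and 5167 UMIs, lowest in Dhx37-/- replicate 1. Col4a3, at 43.9, 34.3, 82.8 and 78.1 CPM, had a log2 fold change of 1.00 ± 0.41 (adjusted p = 0.227), and of 0.57 ± 0.32 (adjusted p = 0.659) with few germ markers. Col18a1 was at 1.26 ± 0.60 (adjusted p = 0.312).

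The change in Sertoli nuclei was also compared with the mean change in myoid, fibroblast, endothelial and Leydig nuclei. None of the 44 genes passed this test, 13 had an unadjusted p under 0.05 beside 2493 of all 15152 genes, and 0.205% of all genes were called. Their median was -0.28 beside 0.14 over all genes. In nuclei of few germ markers the medians were 0.36 for 42 collagen and laminin genes and 0.38 for all genes, none of the 42 passed, and 2 had an unadjusted p under 0.05 beside 875 of all 13878 genes. The most positive estimates by p were those of Col18a1 (2.33 ± 0.72, adjusted p = 0.116), Col4a3 (1.26 ± 0.41, adjusted p = 0.131) and Lamb2 (1.39 ± 0.84, adjusted p = 0.402), and the most negative those of Col16a1 (-1.63 ± 0.45, adjusted p = 0.0818), Col25a1 (-2.00 ± 0.55, adjusted p = 0.0818) and Col15a1 (-1.55 ± 0.47, adjusted p = 0.112). Without WT replicate 1 or Dhx37-/- replicate 1, Col16a1 was called, beside 79 and 302 of all genes.

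In myoid, fibroblast, Leydig and endothelial nuclei no collagen or laminin gene was called between the genotypes. Myoid nuclei had 0 of 25 tested genes called, against 0% of 6056 genes, and fibroblasts 0 of 33, against 0.0109% of 9141. Leydig nuclei had 0 of 28, against 0% of 13160, and endothelial nuclei 0 of 16, against 0% of 5338. At an unadjusted p under 0.05, in the same order of classes, the numbers were 3, 7, 4 and 0 of the collagen and laminin genes, beside 431, 877, 928 and 156 of all genes. DESeq2 called no collagen or laminin gene in these 4 classes, and with few germ markers none was called in myoid, fibroblast or Leydig nuclei. Their median log2 fold changes were 0.27, 0.13, 0.02 and -0.37, beside medians of 0.00, -0.01, -0.01 and -0.04 over all genes.

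Col6a5, a collagen VI chain, had the lowest p in fibroblasts. Its UMIs there were 1, 0, 30 and 11, or 2.47, 0, 49.2 and 23.4 CPM (4.33 ± 0.99, adjusted p = 0.218), and both Dhx37-/- libraries were above both WT libraries. Col6a5 passed the filter on low counts through the Dhx37-/- libraries alone. Its neighbour in the family Col6a6 was at 9.88, 23.8, 42.7 and 87.4 CPM (1.97 ± 0.55, adjusted p = 0.328), also without overlap. Lama1 was at 66.7, 27.7, 108 and 100.1 CPM (1.01 ± 0.38, adjusted p = 0.421). The lowest p with a negative change were those of Col25a1 (-1.17 ± 0.42, adjusted p = 0.416), Col5a1 (-0.75 ± 0.30, adjusted p = 0.460) and Lama3 (-1.35 ± 0.56, adjusted p = 0.468). Col6a5 was called with the replicate number as a block, without any filter on low counts, and without WT replicate 1, WT replicate 2 or Dhx37-/- replicate 2 in turn. Of all genes, 72 were called with the block, 61 without the filter and 201 without Dhx37-/- replicate 2. Without WT replicate 1, Col25a1 and Lama1 were called too, and without WT replicate 2, Col6a6, beside 168 and 128 of all genes.

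In myoid nuclei the lowest p were those of Col12a1, whose levels are given above (2.99 ± 0.87, adjusted p = 0.395), Col3a1 (1.25 ± 0.41, adjusted p = 0.479) and Col11a1, at 27.2, 15.6, 72.1 and 81.8 CPM (1.66 ± 0.56, adjusted p = 0.524). Each was higher in both Dhx37-/- libraries than in both WT libraries. Col11a1 and Col12a1 passed the filter on low counts through the Dhx37-/- libraries alone. No myoid gene had a negative change with an unadjusted p under 0.05, the nearest being Col22a1 (-0.57 ± 0.50, adjusted p = 0.931), Col5a1 (-0.49 ± 0.63) and Col16a1 (-0.30 ± 0.47). Of the collagen IV chains that marked this class, Col4a3 was at 0.37 ± 0.39 (adjusted p = 0.960) and Col4a4 at 0.30 ± 0.40 (adjusted p = 0.986). With the replicate number as a block, Col12a1 was called, beside 17 of all genes. Without WT replicate 1, 4 genes were called, Col3a1, Col4a3, Col4a6 and Col22a1, and without WT replicate 2, Col3a1 and Col12a1, beside 549 and 168 of all genes.

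Leydig nuclei had lower estimates of Col26a1, at 39.3, 77.2, 6.73 and 17.1 CPM (-2.19 ± 0.51, adjusted p = 0.680), Col1a2, at 14.8, 20.4, 5.05 and 4.74 CPM (-1.77 ± 0.49, adjusted p = 0.680), and Col5a1 (-1.31 ± 0.53, adjusted p = 0.693). Col26a1 and Col1a2 did not overlap between the groups, and Col26a1 was called without WT replicate 1, WT replicate 2 or Dhx37-/- replicate 2 in turn, beside 45, 780 and 1 of all genes called. Col1a2 passed the filter on low counts through the WT libraries alone. The higher estimates were those of Col6a1 (1.13 ± 0.47, adjusted p = 0.699), Col7a1 (1.59 ± 0.71, adjusted p = 0.699) and Lamb2 (0.91 ± 0.41, adjusted p = 0.699). Col7a1 passed the filter through the Dhx37-/- libraries alone. Endothelial nuclei had their lowest p for Col18a1 (-1.49 ± 0.76, adjusted p = 0.999), Col4a3 (-1.32 ± 0.77) and Col4a2 (-1.16 ± 0.72) below 0 and for Col15a1 (1.03 ± 0.67, adjusted p = 0.999), Col16a1 (0.83 ± 0.63) and Col9a3 (0.31 ± 0.82) above 0. In Dhx37-/- replicate 2 the endothelial markers were low too, and their part in these values was not tested. Without Dhx37-/- replicate 1, Col8a1 was called in endothelial nuclei, and without Dhx37-/- replicate 2, Col23a1, beside 232 and 12 of all genes.

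Among the germ classes spermatocytes alone had collagen genes called, and all 3 were lower in Dhx37-/- nuclei. They were 3 of 10 tested, against 7.89% of all 10564 genes called and 5.31% called lower. The median log2 fold change was -1.29 for the 10 genes and 0.04 for all genes. Without the filter on low counts the medians were -0.002 for 54 genes, 27 of them above 0, and 0.28 for all genes. The same 3 genes were then called, beside 1477 of all genes. Col28a1 was at 65.7 and 75.0 CPM in WT and 22.2 and 11.3 CPM in Dhx37-/- spermatocytes (-2.12 ± 0.46, adjusted p = 0.0299). Col22a1 was at 459.8 and 782 CPM in WT and 255 and 108 CPM in Dhx37-/- spermatocytes (-1.79 ± 0.42, adjusted p = 0.0345). Col9a1 had 9, 7, 2 and 6 UMIs, or 25.7, 37.5, 2.33 and 4.23 CPM (-3.08 ± 0.68, adjusted p = 0.0315), and passed the filter through the WT libraries alone. For all 3 genes the groups did not overlap, which was not counted over all genes. None of the 3 genes exceeded the free RNA of every library in spermatocytes. Both Dhx37-/- levels of Col22a1 were below the empty droplet range given for it above. The part of free RNA in the calls was not tested. The WT sums held 143 and 72 spermatocytes, with medians of 2173 and 2671 UMIs. The Dhx37-/- sums held 232 and 318, with medians of 3277 and 4135 UMIs. All 3 genes had their highest mean level in round spermatids, and round spermatid markers in the spermatocyte-gated nuclei were at 1477 and 1709 CPM in WT and at 1238 and 826 CPM in Dhx37-/- libraries. The part of these markers in the calls was not tested. The calls did not hold without Dhx37-/- replicate 2, a fit that leaves a single library in that group. Its median was -0.89 for 10 genes and -0.03 for all genes. Col9a1 did not hold without any one of the other libraries either. DESeq2 and nuclei thinned to equal depth did not call Col9a1, beside 474 and 189 of all genes called. Above 0 were only Col20a1 (1.04 ± 0.47, adjusted p = 0.184) and Col4a4 (1.28 ± 0.68, adjusted p = 0.265). Of the partner genes, Dmd, Sgcd and Itga1 of the receptor list were lower in spermatocytes (-1.60 ± 0.34, adjusted p = 0.0295, -2.48 ± 0.51, adjusted p = 0.0273 and -1.76 ± 0.46, adjusted p = 0.0453) and Aspn of the interstitial list was higher (2.62 ± 0.39, adjusted p = 0.0208). No partner gene was called between the genotypes in any other class.

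In spermatogonia 0 of 7 tested genes were called, against 2.56% of 4371 genes, and 1 had an unadjusted p under 0.05 beside 912 of all genes. Col22a1 had the lowest p, at 566, 929.9, 223 and 343 CPM (-1.50 ± 0.46, adjusted p = 0.0901), followed by Col16a1 (-1.03 ± 0.49) and Col4a4 (-1.17 ± 0.63), and Col25a1 alone was above 0 (0.10 ± 0.51). The round spermatids had 0 of 47 called, against 0.00978% of 20450 genes, and elongating spermatids 0 of 48, against 0% of 19475, with 0 and 5 genes at an unadjusted p under 0.05 beside 1277 and 1265 of all genes. DESeq2 called no collagen or laminin gene in these 3 classes. Col22a1 was at 1275 and 1631 CPM in WT and 1447 and 1844 CPM in Dhx37-/- round spermatids, with overlap. The nearest to a call in round spermatids were Col11a1 (1.11 ± 0.57), Col20a1 (0.54 ± 0.28) and Col5a2 (0.57 ± 0.34) above 0, and Col6a3 (-1.07 ± 0.53), Lama2 (-0.44 ± 0.24) and Col28a1 (-0.41 ± 0.22) below. In elongating spermatids they were Col6a1 (1.82 ± 0.72), Col3a1 (1.19 ± 0.48) and Lamb2 (0.77 ± 0.56) above 0, and Col25a1 (-0.67 ± 0.27), Lamb3 (-0.90 ± 0.37) and Lamc3 (-0.89 ± 0.39) below. Without WT replicate 1, 4 genes were called in elongating spermatids (Col7a1, Col13a1, Lamb3 and Lamc3) and 2 in round spermatids (Col5a1 and Lama1), beside 734 and 717 of all genes, and without WT replicate 2, Lamb1 in round spermatids, beside 949.

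Summed over all nuclei, 0 of 54 tested genes were called, against 0% of 30032 genes, and 7 had an unadjusted p under 0.05 beside 4444 of all genes. DESeq2 called 0 of the 54 and 274 of all genes. In such a sum fewer cells of a class and less RNA per cell cannot be told apart. Lama1 was at 18.2, 4.48, 29.3 and 40.3 CPM (1.52 ± 0.57, adjusted p = 0.315), lowest in WT replicate 2, while Sertoli-gated nuclei made up 141, 109, 330 and 354 of the nuclei. Col3a1 was at 9.81, 6.29, 21.3 and 11.3 CPM (0.91 ± 0.39, adjusted p = 0.332) and Col11a1 at 4.99, 3.69, 8.72 and 7.58 CPM (0.81 ± 0.33, adjusted p = 0.325). Lower estimates were those of Col28a1 (-0.66 ± 0.22, adjusted p = 0.307), Col19a1 (-0.54 ± 0.22, adjusted p = 0.325) and Col5a1 (-0.66 ± 0.27, adjusted p = 0.328). Without WT replicate 1, 11 of the genes and 5909 of all genes were called, Lama1, Col3a1 and Col11a1 among the 11, and without WT replicate 2, Col25a1 and 1722 of all genes. Dhx37 itself was at 7.06, 11.8, 10.4 and 10.6 CPM over all nuclei.

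**Figure D5:**
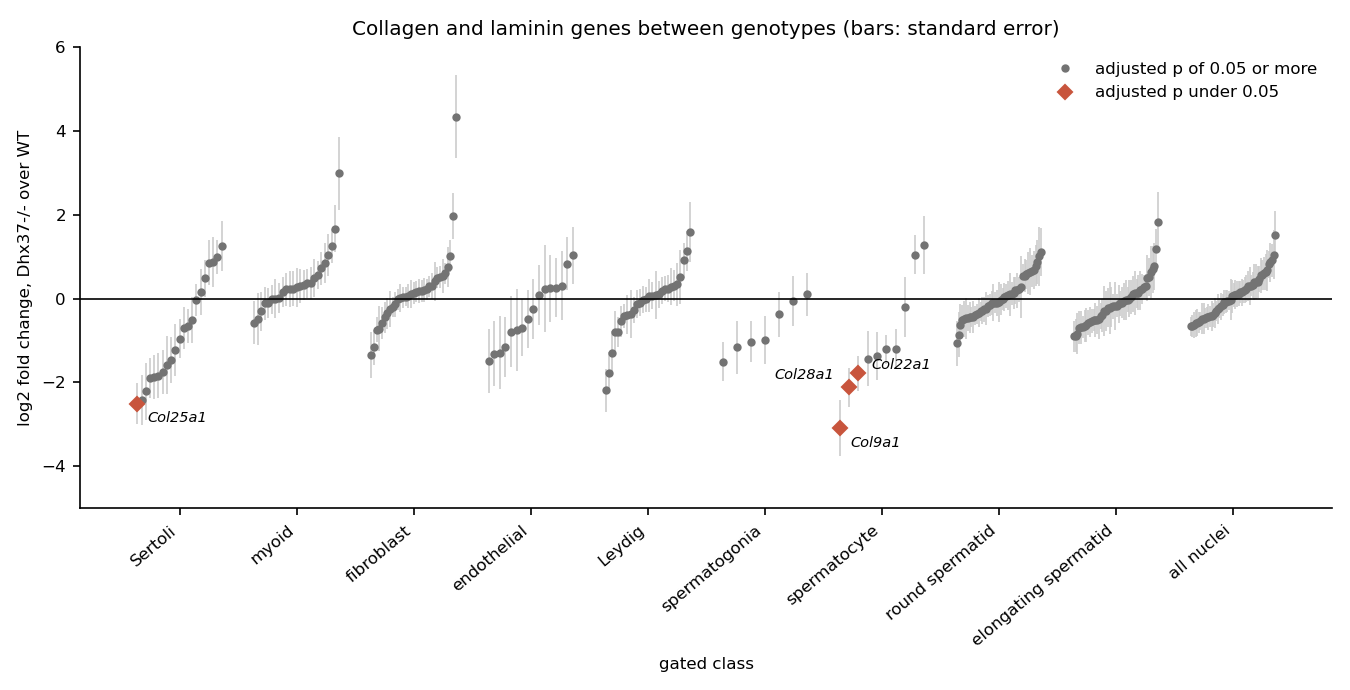
Log2 fold change of Dhx37-/- over WT (vertical axis) for each tested collagen and laminin gene in the 9 classes and all nuclei, ordered by size within a class, with bars for the standard error. Diamonds mark the 4 calls, Col25a1 in Sertoli nuclei and Col22a1, Col28a1 and Col9a1 in spermatocytes, all below 0.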

How the data were processed

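Raw UMI counts per gene and barcode, deposited by the authors as unfiltered matrices of 4 libraries (10x 3′ chemistry), were used as deposited. The authors' methods name Cell Ranger and the mm39 genome, the submitters' processing notes name GRCm38/mm10 and Seurat 3.1.1, and the matrix headers name Cell Ranger 7.2.0. The build behind the counts and whether introns were counted are thus not settled, and promoter windows come from the RefSeq tables of GRCm38.p6. Total counts per library ran from 51797891 to 75611263 UMIs. No column of another series was present (0).

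Barcodes at or above a UMI cut set for each library (926 to 1867 UMIs) were taken as nuclei without a test of their profile. Barcodes from 500 UMIs up to the cut were taken where their profile differed from the ambient one (false discovery rate 0.01, from 10000 simulated profiles). Both kinds had to pass the study's limits of 500 to 5000 genes, 500 or more UMIs and no more than 25% of UMIs from mitochondrial genes. Empty droplets were the barcodes of UMI rank 45000 to 90000. A nucleus entered a class with at least 3 of 12 markers and a marker sum above the expected one by 5 times (3 for spermatocytes, 1.5 for spermatids). Doublets called by Scrublet in scanpy 1.11.5 (4.16% to 4.49%) stayed in, and leaving them out was an alternative. For nuclei of few germ markers, an alternative chosen after seeing the data, the spermatocyte and round spermatid lists together had to be at most 0.5 times, and the elongating list at most 1 times, the expected level.

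Sums per library and class were tested with edgeR 4.0.16 (TMM, filterByExpr, quasi-likelihood, two-sided, Benjamini-Hochberg over all genes tested) in R 4.3.3. Genotypes were compared within a class as 2 against 2 libraries, and Sertoli against the mean of 4 other classes. DESeq2 1.42.0 was an alternative. A genotype test needed 10 nuclei per library, and its filter on low counts can be passed through the 2 libraries of a single genotype. Where nothing says how many mice a library holds, p-values measure the spread between libraries. The fits were tested on simulated data. The genes and lists were chosen with earlier results of these data known. By a fixed rule the text names every called gene between genotypes, or the 3 of lowest p in each direction. It also names the 6 highest and 3 lowest folds per class, all laminin chains and those of collagens I, III, IV and VI. Partner genes called between genotypes are named. Of the partner genes with the highest folds per class, which the rule also covers, only some are named. Other genes were named after their values were seen. Of the 55 genes, 1 is counted but not reported here by itself.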

Additional observations from a re-analysis of the deposited data

How the results depend on the processing

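Counts of called collagen and laminin genes between classes stayed within 1.5 times of the reported ones under the alternatives run for them (DESeq2, the replicate block and barcodes taken by the study's limits alone were run between genotypes only), except with nuclei thinned to 1000 UMIs (Leydig 16, endothelial 17) and with nuclei of few germ markers (Leydig 18, endothelial 16). Between genotypes the Sertoli count of 1 depended on the setting: it was 3 with DESeq2 size factors in edgeR (573 of all genes), 4 with DESeq2 (410), 5 without a filter on low counts (821), 2 without the upper gene limit (419), 10 with a gate of 2 markers (1471 of 13203), and 0 without TMM, with a gate of 4 markers, with thinned nuclei, with few germ markers and with the replicate block. Without a filter on low counts, 2 genes were called in fibroblasts, 1 each in myoid and Leydig nuclei and 2 in spermatogonia, beside 61, 31, 43 and 98 of all genes. Barcodes taken by the study's limits alone gave 5 in spermatocytes (1232 of all genes) and 1 in Sertoli nuclei (137), Col5a1 and not Col25a1. The Sertoli change against other classes gave 3 without a filter, 2 without TMM and 8 with a gate of 2 markers, beside 229, 180 and 1177 of all genes.

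Leaving out 1 library at a time gave 0 to 10 called genes in Sertoli nuclei, 0 to 11 in all nuclei, 0 to 4 in myoid nuclei and in elongating spermatids, 0 to 3 in fibroblasts and in spermatocytes, 0 to 2 in round spermatids, and 0 to 1 in Leydig nuclei, in endothelial nuclei and for the Sertoli change against other classes. The replicate block called 1 gene each in fibroblasts and myoid nuclei and changed no other count except that in Sertoli nuclei. Replicate numbers are not said to mark a shared litter or day, and the deviations of same-numbered libraries had correlations from -0.40 to 0.42 over the classes.

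Of the values of the single genes that the rule names, 1416 kept their direction and side of the threshold, 50 became and 40 ceased to be significant, and 12 turned their direction. With few germ markers these were Col9a1 in the endothelial comparison (-0.40), Col16a1 between genotypes in myoid nuclei (0.024) and Col25a1 in the Sertoli change against other classes (1.65). With a gate of 4 markers they were Col7a1 in the germ comparison (-0.17) and, between genotypes in myoid nuclei, Col22a1 (0.21) and Col16a1 (0.075). With 1 library left out, the genotype change ran in myoid nuclei from -1.26 to 0.54 for Col22a1 and from -1.10 to 0.14 for Col5a1, both positive only without WT replicate 2, and from -1.003 to 0.12 for Col16a1, positive only without Dhx37-/- replicate 2. It ran from -0.90 to 1.02 for Col9a3 in endothelial nuclei, negative without WT replicate 1 or Dhx37-/- replicate 1, and from -0.38 to 0.61 for Col25a1 in spermatogonia, negative only without Dhx37-/- replicate 2. Among all 246 class estimates of the collagen and laminin genes, 29 were of opposite sign with few germ markers. Of these, 8 had been called, and none of the 8 was called in the other direction: Col12a1 (0.43), Col19a1 (0.73) and Lama2 (0.05) in Leydig nuclei, Col9a1, Col19a1 (-5.66), Col22a1 (-0.14) and Col25a1 (-0.74) in endothelial nuclei, and Col8a1 (0.65) in the germ comparison. Col22a1 in Leydig nuclei, not called at -0.58 ± 0.26, was called higher with few germ markers (0.95 ± 0.27). The causes were not tested. The genotype tests of endothelial nuclei with 4 markers or few germ markers and of spermatogonia with 4 markers were not run for lack of nuclei. Depth limits low genes most in the endothelial, myoid and spermatogonial sums.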
